A study of Mus musculus with 20 samples.

Results

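Foxp3 and 6 genes that are widely used to tell regulatory T (Treg) cells from conventional CD4 T cells were followed over 20 single-colour arrays of sorted mouse T cells. The genes are Foxp3, Lrrc32, Ikzf2, Ikzf4, Pde3b, Nrp1 and Gpr83. They were chosen by name, with earlier results of these data known. On the array 11 of 39429 probes carry these names, and all 11 were among the 22264 probes that were tested. Where a gene had several probes, the brightest on average represents it and the others are given beside it.

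All mice carried a Foxp3 allele with green fluorescent protein (GFP) as reporter (strain B6.Cg-Foxp3<tm1Mal>), and each sample was pooled from 8 to 15 mice of both sexes, 8 to 14 weeks old. Peripheral lymph nodes (pLN) were taken 12 or 25 days (d12, d25) after subcutaneous immunisation with keyhole limpet hemocyanin in alum. Peyer's patches (PP) are lymphoid follicles in the wall of the small intestine, and their labels give neither immunisation nor day. The methods could be read to mean that these mice were immunised too, so whether PP minus pLN differences compare tissues under like treatment is not settled here. Sorting gates were GFP-PD1loGL7- for naive T cells, GFP-PD1hiGL7+ for T follicular helper (TFH) cells, GFP+PD1loGL7- for Treg cells and GFP+PD1hi for T follicular regulatory (TFR) cells regardless of GL7. From PP, GFP-PD1hi TFH cells were sorted as GL7+ and as GL7-, and naive T cells were not analysed here. There were 2 arrays for each of the 4 groups of pLN d12 and the 4 groups of PP, and 1 array for each of the 4 groups of pLN d25. Since GFP stood for Foxp3 in the sort, the Foxp3 level in GFP+ against GFP- cells is a property of the gate and no finding. In sorted bulk samples, fewer cells that express a gene and less RNA per cell cannot be told apart.

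Foxp3 is the forkhead transcription factor on which Treg identity depends, and Ikzf2 (Helios) and Ikzf4 (Eos) are zinc-finger factors of the Ikaros family, of which Eos can act as a co-repressor with Foxp3. Lrrc32 encodes GARP, which holds latent TGF-beta on the Treg surface, and Nrp1 encodes neuropilin-1, a co-receptor for semaphorins and VEGF that is used in mice to mark Treg cells of thymic origin. Gpr83 is a G-protein-coupled receptor found in Treg signatures, and Pde3b is a cyclic AMP-degrading phosphodiesterase that Foxp3 is known to repress.

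Values are normalised intensities on a linear scale with a lower limit of 20. A probe was below background on an array when fewer than 3 of its 4 printed copies were well above the local background. The lowest detected intensity of an array was at most 144, so levels under that are poorly resolved. Intensities of different probes depend on the probe and are not set against each other. Arrays of a group correlated at r between 0.955 and 0.986 across probes. The 4 arrays of each of 5 slides shared a tissue and day, and the slide was tested as a batch. Scanner background was 24 to 78 (median per array) on 19 arrays and 268 on pLN d12 TFR replicate 2. All 6 T cell markers were detected on every array, as were the follicular genes Bcl6 and Cxcr5. Of 10 dendritic and myeloid markers 5 to 8 were detected per array, with sums of 76113 to 152298. Slide 4 (PP, replicate 1) stood apart from slide 5 (PP, replicate 2), with a summed intensity of 13 B cell markers of 55852 to 385577 against 10955 to 27801 and of 7 epithelial markers of 11952 to 35974 against 1243 to 2290. On slide 4 the B cell sums were 385577 in TFR, 224855 in Treg, 101016 in GL7+ TFH and 55852 in GL7- TFH cells. The epithelial sums were 13222, 35974, 11952 and 15561 in the same order, so these markers were uneven between the compared groups. Their part in the results was not tested. The genes followed here are given for each slide of PP, and those of their calls in PP that change without slide 4 are named. Leaving out slide 4 leaves 1 array in each PP group, so the spread then comes from the pLN d12 arrays alone. In such a change, the loss of arrays and slide 4 itself cannot be told apart.

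The probes that read these genes are shown so that the transcript stretch behind each value is known. Each is 60 bases long and lies at the stated place of the array annotation (mouse assembly mm9). The probes of Nrp1 and of the second Ikzf4 site are printed in full and the others as 30 bases. Capitals mark ATTAAA, a variant of the polyadenylation signal.
Foxp3, chrX:7172301-7172360, plus strand, first 30 bases: attatgtgttggagtgtgcctgaacagctc
Lrrc32, chr7:105650282-105650341, plus strand, last 30 bases: tgaatgtATTAAAgtataattttggagaaa
Ikzf2, chr1:69577853-69577912, minus strand, first 30 bases: ctcaggaacaagcatataatttgtccaaga
Ikzf4, chr10:128069521-128069580, minus strand, first 30 bases: ccatcccactctctgcttctttgagattca
Ikzf4, second site, chr10:128071131-128071190, minus strand: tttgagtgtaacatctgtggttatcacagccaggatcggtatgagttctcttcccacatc
Pde3b, chr7:121681370-121681429, plus strand, first 30 bases: cacttttgctaccacaactacatcatttgt
Nrp1, chr8:131026650-131026709, plus strand: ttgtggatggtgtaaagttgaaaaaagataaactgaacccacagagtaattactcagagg
Gpr83, chr9:14673871-14673930, plus strand, first 30 bases: ctgaactacacgtgtccatgtagattgtaa

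No gene annotation of mm9 was used, so exon or UTR positions are not given. The second Ikzf4 site lies 1610 bases from the main probe on the genome. A further Ikzf4 probe lies 83 bases from the main one, the second Ikzf2 probe 6155 bases and the second Pde3b probe 1330 bases.

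**Figure D1:**
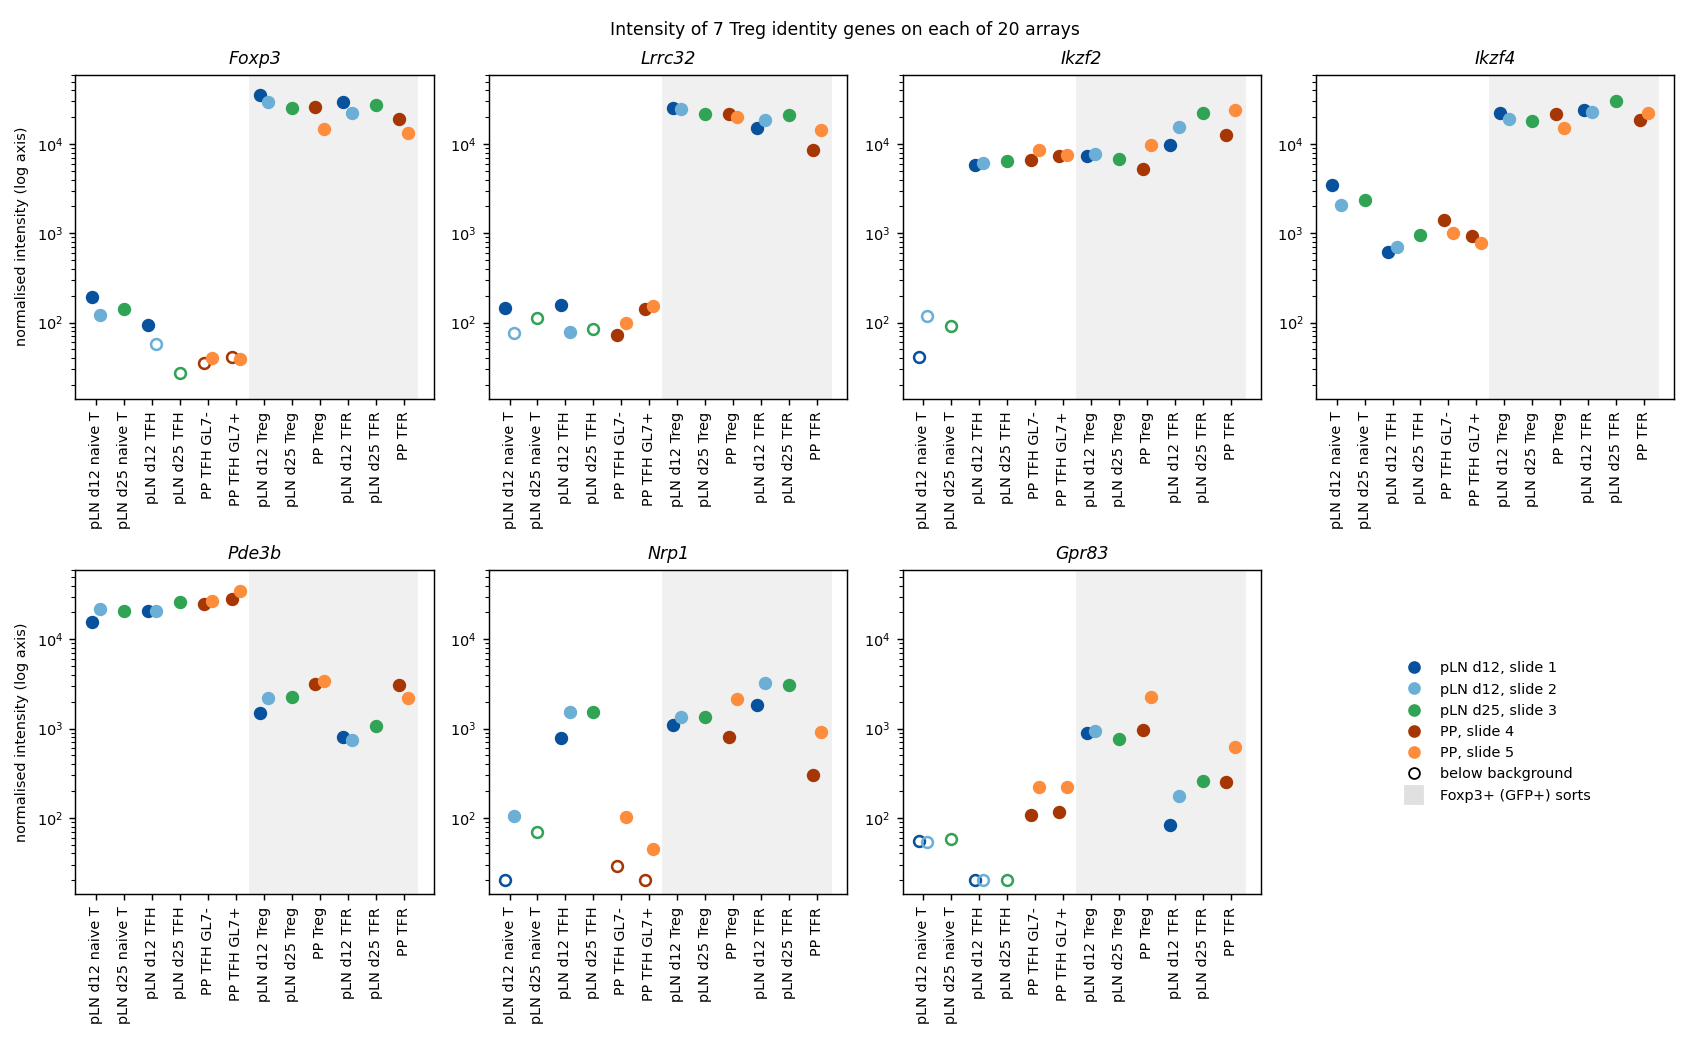
Normalised intensity (log axis) of the main probe of each gene on each array, by group. Points are single arrays coloured by slide, open circles are below background and the grey area holds the GFP+ sorts. Lrrc32 and Ikzf4 lie high and Pde3b low in the grey area, Ikzf2 in TFH cells lies near Treg cells (slightly below them in pLN), and Nrp1 and Gpr83 vary with tissue and cell type.

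Foxp3, the gene of the sort gate, was measured first as a check of the labels. It lay between 13409 and 35129 on the 10 arrays of Treg and TFR cells and between 27.0 and 192 on the 10 arrays of naive T and TFH cells. No library went against its gate. In Treg cells it read 35129 and 29850 in pLN d12, 25435 in pLN d25 and 26173 and 14718 in PP. In TFR cells it read 29926 and 22047 in pLN d12, 27484 in pLN d25 and 19243 and 13409 in PP. By mean, the order ran from pLN d12 Treg through pLN d25 TFR, pLN d12 TFR, pLN d25 Treg and PP Treg to PP TFR cells, and all neighbours in it other than the first pair overlapped. TFR cells did not differ from Treg cells in Foxp3 by the test, with log2 differences of -0.33 in pLN d12 (SE 0.35, 95% interval -1.15 to 0.48, adjusted p 0.686) and -0.29 in PP (SE 0.35, 95% interval -1.10 to 0.52, adjusted p 0.753). All tests are from limma, fitted to all 12 groups with Benjamini-Hochberg adjustment over the tested probes, and "called" means an adjusted p below 0.05 together with a log2 difference of 1 or more in size.

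Among GFP- cells a faint Foxp3 signal was seen in naive T cells, at 192 and 123 in pLN d12 and 141 in pLN d25. In TFH cells it was 94.8 and 57.2 in pLN d12, the second below background, 27.0 and below background in pLN d25, and between 35.3 and 40.7 in PP, where 2 of 4 arrays were below background. Naive arrays thus lay above all TFH arrays. On d12 the log2 difference of TFH minus naive T cells was -1.06 (SE 0.35, adjusted p 0.0609) and was not called. With slide as a fixed block the adjusted p was 0.00519 and the gene was called. On slides 1, 2 and 3 the difference had the same sign and ranged from -2.39 to -1.02.

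The 2 promoter windows that RefSeq lists for Foxp3 (GRCm38.p6, plus strand, the 250 bases before each start) are printed because Foxp3 is the gene that defines the sorted fractions. Capitals mark letters of 5 motifs searched on both strands, namely the TATA box motif TATAAA, the forkhead motif TGTTTA, the Runt motif TGTGGT, the NFAT motif GGAAAA and the STAT motif TTCNNNGAA.
Foxp3, first window, chrX:7579426-7579675: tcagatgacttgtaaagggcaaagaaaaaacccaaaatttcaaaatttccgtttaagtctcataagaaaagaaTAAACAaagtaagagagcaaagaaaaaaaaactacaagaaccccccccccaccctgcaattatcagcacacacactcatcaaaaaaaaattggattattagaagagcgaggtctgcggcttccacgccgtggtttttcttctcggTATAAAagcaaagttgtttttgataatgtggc
Foxp3, second window, chrX:7580233-7580482: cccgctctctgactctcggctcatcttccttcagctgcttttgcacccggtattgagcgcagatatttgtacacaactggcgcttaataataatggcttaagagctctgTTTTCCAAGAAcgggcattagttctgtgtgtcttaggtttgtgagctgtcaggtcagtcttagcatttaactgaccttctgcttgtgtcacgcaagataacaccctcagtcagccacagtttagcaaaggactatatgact

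The first window holds TATAAA 32 bases before the start and the forkhead letters on the opposite strand 177 bases before it. The second holds the NFAT letters on the opposite strand at 141 bases and the STAT letters at 139 bases, which overlap. Of all 32851 windows of this length, 12.4% hold TATAAA, 12.0% TGTTTA, 14.0% TGTGGT, 20.4% GGAAAA and 7.02% TTCNNNGAA. The windows of Nrp1 and Gpr83 hold none of the 5, and the table lists 3 of the 7 genes. A match is only a description of the letters.

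Treg cells of pLN d12 were compared with naive T cells to see which genes separate the GFP+ and GFP- fractions outside the follicular gate. All 7 genes were called, where 3.76% of all tested probes were. Higher in Treg cells were 6 of them, against 2.86% of all probes, and lower was Pde3b alone, against 0.898%. With Treg and TFR cells taken as one arm and naive T and TFH cells as the other, all 7 were called too, against 5.1% of all probes. Foxp3 itself is fixed by the gate, and the study had already shown Lrrc32 and Pde3b from these arrays to illustrate the purity of the sorts. The counts for the 7 genes are therefore descriptions and no test of the set. TFH against naive T cells, also on d12, gave 3 of 7 called (Ikzf2 and Nrp1 higher, Ikzf4 lower), against 14.7% of all probes. The fixed slide block called 5, adding Foxp3 and Gpr83, the latter below background on all 4 arrays compared and so without a measured difference. When TFR cells were compared with TFH cells in pLN d12, 5 of 7 were called, against 5.01% of all probes. The same step in PP against GL7+ TFH cells gave 5 of 7, against 3.44%, and PP Treg cells against GL7+ TFH cells gave 6 of 7, against 9.87%.

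Lrrc32 (GARP) separated the fractions without overlap. It read 25207 and 24578 in Treg and 15150 and 18655 in TFR cells of pLN d12, 21442 and 21390 in Treg and TFR cells of pLN d25, and 21585 and 20141 in Treg and 8579 and 14399 in TFR cells of PP. The GFP- arrays lay between 72.8 and 156, of which 3 were below background. On d12 the log2 excess of Treg over naive T cells was 7.88 (SE 0.38, adjusted p 5.4e-06). That of TFR over TFH cells was 7.25 on d12 (SE 0.38, adjusted p 5.23e-06) and 6.22 in PP (SE 0.38, adjusted p 2.18e-05). These calls were lost under 1 alternative each, in which only the compared groups entered the fit. TFR lay at or below Treg cells on 5 of 5 slides, by a log2 difference of -1.33 on slide 4 and between -0.74 and -0.0040 on the others. The test gave -0.91 in PP (SE 0.38, adjusted p 0.184) and -0.57 on d12 of pLN (SE 0.38, adjusted p 0.458), so neither was called.

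Ikzf4 (Eos) was highest in both GFP+ fractions, lower in naive T cells and lowest in TFH cells. In pLN d12 it read 22189 and 18889 in Treg, 23943 and 22833 in TFR, 3455 and 2076 in naive T and 621 and 693 in TFH cells. On d25 the values were 18067, 30232, 2365 and 968 in the same order. In PP it read 21940 and 15289 in Treg and 18711 and 22237 in TFR cells, 938 and 772 in GL7+ TFH cells and 1393 and 1006 in GL7- TFH cells. Treg exceeded naive T cells 7.64-fold (log2 2.93, SE 0.28, adjusted p 0.000205) and TFR exceeded TFH cells 35.6-fold in pLN d12 (log2 5.15, SE 0.28, adjusted p 5.49e-06) and 24.0-fold in PP (log2 4.58, SE 0.28, adjusted p 1.98e-05). TFH cells of pLN d12 were 4.08-fold below naive T cells (log2 -2.03, SE 0.28, adjusted p 0.000531). Eos did not differ between TFR and Treg cells by the test, with log2 intervals of -0.45 to 0.83 in pLN d12 and -0.48 to 0.80 in PP.

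The Ikzf4 probes did not respond alike. The probe 83 bases from the main one followed it at r 0.999 over the 20 arrays, while the probe at the second site followed it at r 0.645. The second site was dim, at 71.3 to 310 in pLN d12 and below background in naive T, TFH and Treg cells of d25. This limits its r and its differences. At the second site the Treg to naive difference was 0.68 on the log2 scale (SE 0.36, adjusted p 0.588) and the TFH to naive difference -0.75 (adjusted p 0.191), neither called. TFR minus TFH cells gave 1.75 in PP (adjusted p 0.0218) and 1.60 in pLN d12 (SE 0.36, adjusted p 0.0249), both called and smaller than at the main probe. Of the Ikzf4 probes, this one alone was called between tissues in TFR cells, at 310 and 163 in pLN d12 against 802 and 451 in PP. The log2 difference was 1.42 (SE 0.36, adjusted p 0.0229), where the main probe gave -0.20 (adjusted p 0.714). At this site other cells also read higher in PP. Treg cells gave 710 and 463 in PP against 235 and 172 in pLN d12, not called. GL7+ TFH cells gave 179 and 179 against 71.3 and 77.0.

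Pde3b, the phosphodiesterase, showed the opposite order and was the one member low in GFP+ cells. It read 15716 and 21929 in naive T and 20977 and 20684 in TFH cells of pLN d12, 20534 and 26467 in pLN d25, 28598 and 34404 in GL7+ TFH and 24686 and 27083 in GL7- TFH cells of PP. In GFP+ cells it read 1478 and 2196 in Treg and 799 and 737 in TFR cells of pLN d12, 2231 and 1058 in pLN d25, and 3150 and 3395 in Treg and 3065 and 2218 in TFR cells of PP. Treg lay 10.3-fold below naive T cells (log2 -3.37, SE 0.24, adjusted p 4.12e-05). TFR lay 27.1-fold below TFH cells in pLN d12 (log2 -4.76, SE 0.24, adjusted p 4.25e-06) and 12.0-fold below in PP (log2 -3.59, SE 0.24, adjusted p 3.86e-05). The second Pde3b probe was at the lower limit of 20 on 9 of 10 GFP+ arrays and at least 64.1 on GFP- arrays, so it could not resolve differences among GFP+ cells.

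Ikzf2 (Helios) departed from Foxp3, Lrrc32 and Ikzf4 in that TFH cells carried it at close to the Treg level. On naive arrays it was below background, at 40.7 and 117 in pLN d12 and 92.3 in pLN d25. In TFH cells it read 5878 and 6094 in pLN d12, 6497 in pLN d25, 7255 and 7525 in GL7+ and 6697 and 8544 in GL7- cells of PP. Treg cells gave 7274 and 7652 in pLN d12, 6808 in pLN d25 and 5202 and 9724 in PP. TFH arrays lay below the Treg array of the same slide on all 3 slides of pLN, a difference that was not tested, and the groups overlapped in PP. TFR cells gave 9676 and 15646 in pLN d12, 22392 in pLN d25 and 12706 and 23894 in PP, and of these only the lower pLN d12 value fell within the range of Treg arrays.

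Ikzf2 was at least 107.4-fold higher in Treg than in naive T cells (adjusted p 4.2e-05) and at least 86.2-fold higher in TFH than in naive T cells (adjusted p 1.5e-05), bounds because both naive arrays were below background, taken on each against the higher of its lowest detected signal and the probe's own signal. TFR minus TFH cells gave log2 differences of 1.24 in PP (SE 0.49, 95% interval 0.10 to 2.37, adjusted p 0.323) and 1.04 in pLN d12 (SE 0.49, 95% interval -0.10 to 2.18, adjusted p 0.353), neither called. PP Treg minus GL7+ TFH cells gave -0.06 (SE 0.49, 95% interval -1.19 to 1.08, adjusted p 0.981). The second Ikzf2 probe followed the first at r 0.980.

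Nrp1 (neuropilin-1) was also shared between TFH and Treg cells in lymph nodes, though not in PP. In pLN d12 it read 20 (below background) and 104 in naive T, 792 and 1515 in TFH, 1104 and 1333 in Treg and 1840 and 3234 in TFR cells. On d25 the values were 70.2 (below background), 1550, 1347 and 3085 in the same order. In PP, TFH cells read 20 and 44.3 when GL7+ and 29.1 and 102 when GL7-, with both replicate 1 arrays below background. PP Treg cells gave 806 and 2120 and PP TFR cells 302 and 912, and all of these lay above the PP TFH arrays.

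On d12 the log2 excess of Nrp1 over naive T cells was 4.73 in Treg (SE 0.91, adjusted p 0.0146) and 4.58 in TFH cells (SE 0.91, adjusted p 0.00496), with 1 of 2 naive arrays detected. TFR minus TFH cells gave 4.14 in PP (SE 0.91, adjusted p 0.0317) and 1.15 in pLN d12 (SE 0.91, adjusted p 0.701). The Nrp1 spread between arrays was the widest of the 7 genes, and its calls rested on single arrays. The Treg call was lost without naive T replicate 1 (adjusted p 0.131), Treg replicate 1 (0.0963) or Treg replicate 2 (0.0895), and the TFH call without naive T replicate 1 (adjusted p 0.0501). The PP call of TFR over TFH cells was lost without slide 4 (adjusted p 0.224), TFH GL7+ replicate 1 (0.22), TFH GL7+ replicate 2 (0.0917) or TFR replicate 2 (0.233). PP Treg minus GL7+ TFH cells gave 5.46 (SE 0.91, adjusted p 0.00278), lost without slide 4 (adjusted p 0.0574).

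Gpr83 was highest in Treg cells of either tissue. In pLN d12 it read 903 and 947 in Treg and 83.4 and 178 in TFR cells, and it was below background in naive T (55.7 and 53.5) and TFH cells (20 and 20). On d25 it read 774 in Treg and 261 in TFR cells, with naive T (58.2) and TFH cells (20) below background. In PP it read 965 and 2279 in Treg, 255 and 621 in TFR, 116 and 223 in GL7+ TFH and 108 and 221 in GL7- TFH cells. TFH cells of PP were thus detected on 4 of 4 arrays and those of pLN on 0 of 3.

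Gpr83 was at least 12.9-fold higher in Treg than in naive T cells of pLN d12 (adjusted p 0.00247). For TFR over TFH cells the bound was 3.31-fold (adjusted p 0.0239), with TFH replicate 1 entered at the lower limit of 20. It is not firm, since the log2 difference went down to 0.41 under alternatives. In PP, Treg exceeded GL7+ TFH cells 9.22-fold (log2 3.20, SE 0.57, adjusted p 0.00419), while TFR minus GL7+ TFH cells gave 1.31 (SE 0.57, adjusted p 0.413), which slide as a fixed block called (adjusted p 0.0119). The TFR call in pLN was lost under 7 of 12 alternatives, among them leaving out TFH replicate 1, TFH replicate 2 or TFR replicate 2 (adjusted p 0.138, 0.0911 and 0.185).

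**Figure D2:**
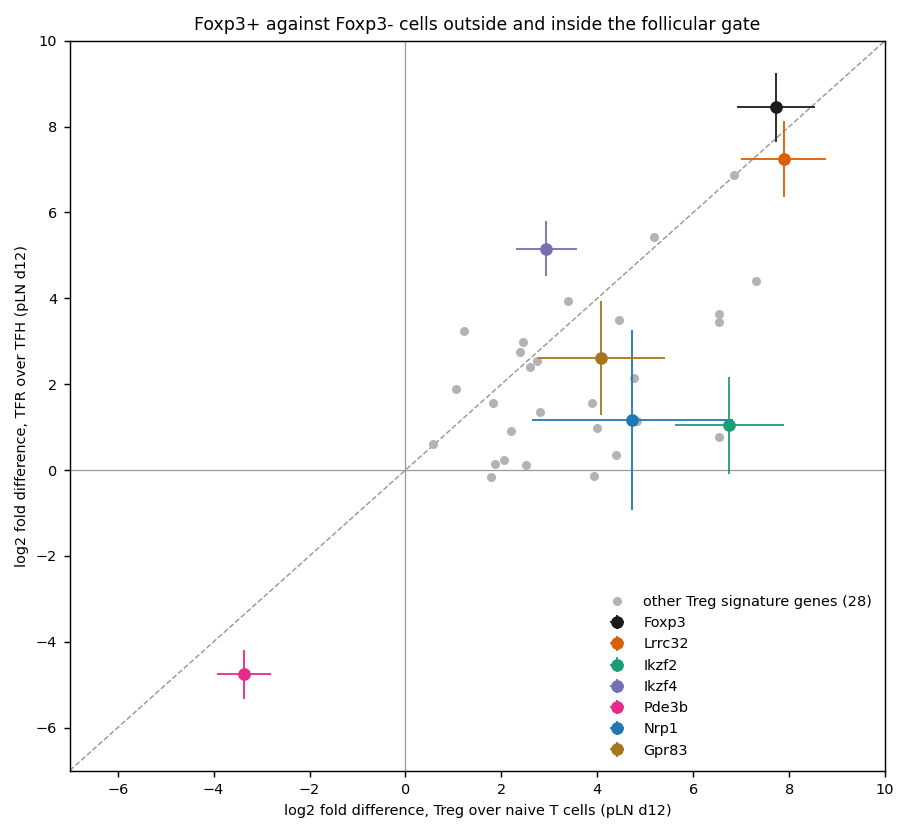
Log2 fold difference of Treg over naive T cells (horizontal) and of TFR over TFH cells (vertical) in pLN d12, for the 7 genes with 95% intervals and for 28 other Treg signature genes (grey). The dashed line marks equal differences, and Ikzf2 lies far below it (6.76 against 1.04) while Ikzf4 lies above it (2.93 against 5.15). Values of Ikzf2 against naive T cells and of Gpr83 on both axes are fitted against GFP- arrays below background.

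Whether the GFP+ to GFP- difference changed with the follicular gate was tested as the TFR minus TFH difference less the Treg minus naive difference in pLN d12. These differences share no array. Of the 7 genes 2 were called, against 2.18% of all probes. For Ikzf2 the difference was smaller in follicular cells, by -5.72 on the log2 scale (SE 0.70, adjusted p 0.0025), with both naive arrays below background, and the second probe gave -5.05 (adjusted p 0.003). For Ikzf4 it grew by 2.22 (SE 0.39, adjusted p 0.0172). In 8 of 18 alternatives this was no longer called, among them leaving out naive T replicate 1, TFH replicate 1 or any 1 of the 4 Treg and TFR arrays (adjusted p 0.0549 to 0.0783) and the second site (0.92, adjusted p 0.745).

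Nrp1 gave -3.58 (SE 1.29, adjusted p 0.315), Gpr83 -1.48 (SE 0.81, adjusted p 0.745) and Pde3b -1.40 (SE 0.34, adjusted p 0.0782), none called. With slide as a fixed block these 3 were called as well, at adjusted p 0.00774, 0.039 and 0.026. For Gpr83 naive T and TFH cells were below background on all arrays, so its value compares baselines that were not measured. Foxp3 (0.73) and Lrrc32 (-0.64) were called under neither (adjusted p 0.937 and 1.0).

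TFR cells were next set against Treg cells of the same tissue. In pLN d12, 2 of 7 genes were called, against 8.35% of all probes, and both were lower in TFR cells, against 2.56%. In PP 0 of 7 were called, against 9.25% of all probes, and slide as a fixed block called 3. At an unadjusted p under 0.05 were 3 of 7, against 23.1% of all probes. Gpr83 was 7.60-fold lower in TFR than in Treg cells of pLN d12 (log2 -2.93, SE 0.57, adjusted p 0.00869). In PP its log2 fold change was -1.90 (SE 0.57, adjusted p 0.0598), called with the block (adjusted p 0.000769). TFR lay below Treg cells on 5 of 5 slides, 10.8-fold and 5.33-fold on the slides of pLN d12, 2.97-fold on that of d25 and 3.79-fold and 3.67-fold on slides 4 and 5.

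Pde3b, already low in Treg cells, was a further 2.35-fold lower in TFR cells of pLN d12 (log2 -1.23, SE 0.24, adjusted p 0.00896). In PP the value was -0.33 (SE 0.24, adjusted p 0.523). The differences were -0.89 and -1.58 on the slides of pLN d12, -1.08 on d25, and -0.04 and -0.61 on slides 4 and 5. The pLN call of Pde3b was lost without Treg replicate 2 (adjusted p 0.0911) or TFR replicate 2 (adjusted p 0.0634), and that of Gpr83 without Treg replicate 2 (adjusted p 0.0643) or TFR replicate 1 (adjusted p 0.0834).

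Ikzf2 ran the other way and was higher in TFR than in Treg cells on 5 of 5 slides, by 0.41 and 1.03 in pLN d12, 1.72 on d25 and 1.29 and 1.30 in PP on the log2 scale. The tests gave 1.29 in PP (SE 0.49, adjusted p 0.136) and 0.72 in pLN d12 (SE 0.49, adjusted p 0.463), neither called. With the block the PP difference was called (adjusted p 0.0216) and that of pLN was not (adjusted p 0.139).

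For Nrp1 the direction of the step differed between tissues. TFR exceeded Treg cells on the 3 slides of pLN by 0.74, 1.28 and 1.20 and lay below them on both slides of PP by -1.42 and -1.22. The difference between PP and pLN d12 was -2.32 (SE 1.29, adjusted p 0.777) and was not called. The block called it, at an adjusted p of 0.0472. Among the 7 genes 0 were called in this test, against 0.548% of all probes, and 1 (Pde3b) had an unadjusted p under 0.05, against 8.17%. Nrp1 was 2.63 and 3.02 times lower on slide 4 than on slide 5 in Treg and TFR cells, and on slide 4 both TFH arrays were below background. Gpr83 was 1.92 to 2.44 times lower on slide 4 in the 4 groups of PP.

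A test of the mean step over pLN d12 and PP was added after these values had been seen. It called Gpr83 alone (-2.41, SE 0.41, adjusted p 0.00188), against 10.9% of all probes. Pde3b (-0.78, SE 0.17, adjusted p 0.00858) passed the adjusted p but not the limit on fold change. Ikzf2 (1.01, SE 0.35, adjusted p 0.0677) was called with the block (adjusted p 0.0102), as under 2 further alternatives.

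**Figure D3:**
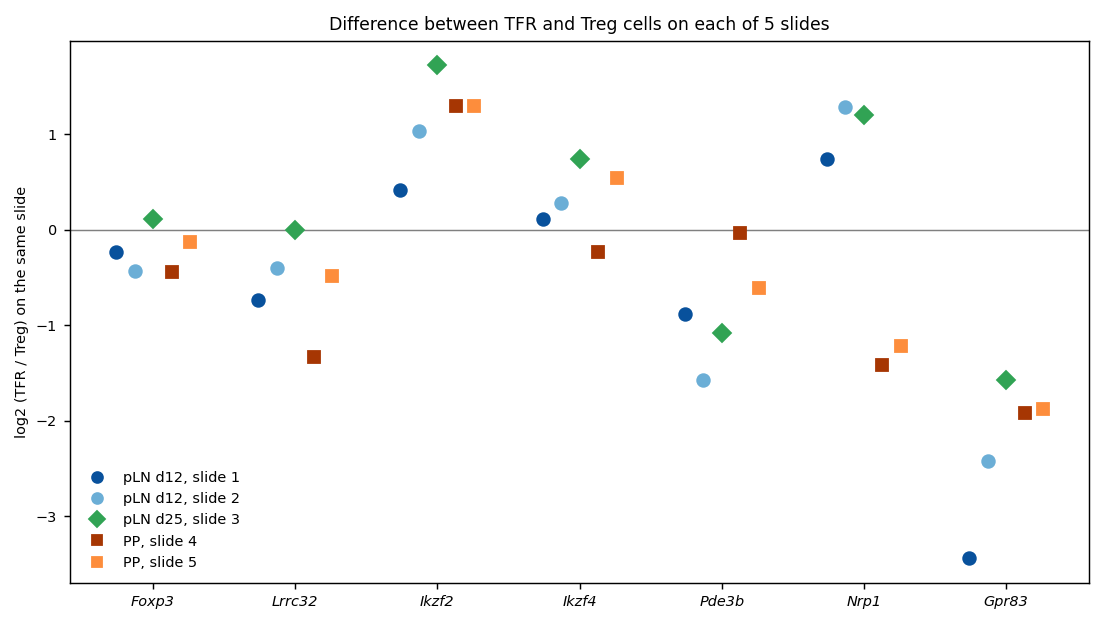
Log2 ratio of TFR to Treg cells on the same slide for each gene. Each point is 1 pair of arrays, with circles for pLN d12, diamonds for pLN d25 and squares for PP. Gpr83 lies below 0 and Ikzf2 above 0 on 5 of 5 slides, and Nrp1 lies above 0 in pLN and below 0 in PP.

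Tissues were compared within each cell type. No slide held both tissues, so these differences also hold any difference between slides. Unless stated otherwise, the calls come from the fit without slide. In TFR cells Pde3b alone was called of the 7, against 11.1% of all probes. It was 3.40-fold higher in PP (log2 1.76, SE 0.24, adjusted p 0.00149), with no overlap between 799 and 737 in pLN d12 and 3065 and 2218 in PP. The slide as a random block gave an adjusted p of 0.0192. Without slide 4 Gpr83 was called too (2.35), from 1 PP array. In Treg cells 0 of 7 were called, against 2.24% of all probes. At an unadjusted p under 0.05 was 1 of 7 (Pde3b, 0.86, SE 0.24, adjusted p 0.113), against 14.6%.

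In GL7+ TFH cells 2 of 7 were called, against 4.54% of all probes. Nrp1 was lower in PP, with a log2 difference of -5.20 (SE 0.91, adjusted p 0.0115), with 1 of 2 PP arrays detected. Gpr83 was higher in PP, with a bound of 4.37-fold (adjusted p 0.016). That bound is not firm, since pLN d12 TFH replicate 1 entered it at the lower limit of 20. Under alternatives the log2 difference of Gpr83 went down to 0.69. The Nrp1 call was lost without slide 4 (-4.63, adjusted p 0.107), without PP TFH GL7+ replicate 1 (adjusted p 0.102) and without pLN d12 TFH replicate 2 (adjusted p 0.0785). The Gpr83 call was lost without any 1 of the 4 arrays compared (adjusted p 0.0529 to 0.108). In TFR cells Nrp1 gave -2.22 (SE 0.91, adjusted p 0.133) and Gpr83 1.71 (SE 0.57, adjusted p 0.0699), neither called.

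**Figure D4:**
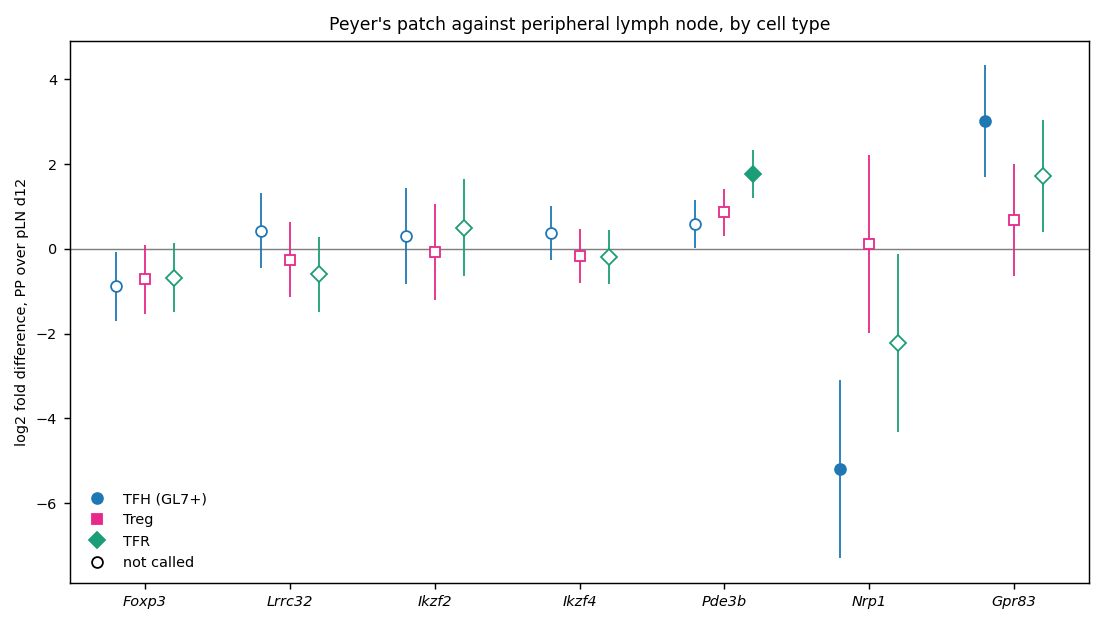
Log2 fold difference of PP over pLN d12 with 95% intervals for each gene in TFH (GL7+), Treg and TFR cells. Filled symbols were called, which were Nrp1 (-5.20) and Gpr83 in TFH cells and Pde3b (1.76) in TFR cells. The Gpr83 point in TFH cells (3.01) and its interval are fitted values against pLN arrays that were below background. The bound of 4.37-fold given for it is not firm.

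GL7+ and GL7- TFH cells of PP gave 0 calls among the 7 genes and 0 at an unadjusted p under 0.05, against 0.00898% and 1.14% of all probes. The methods' t-test gave 1 of 7 (Lrrc32) at an unadjusted p under 0.05, against 2.36% of all probes, and 1 probe in all after Benjamini-Hochberg adjustment. The widest differences were -0.87 for Nrp1 (95% interval -2.97 to 1.22) and 0.82 for Lrrc32 (95% interval -0.07 to 1.70). Day 25 against day 12, averaged over the 4 cell types of pLN, also gave 0 calls and 0 at an unadjusted p under 0.05, against 0.0404% and 9.42% of all probes, with values from -0.45 (Foxp3) to 0.40 (Nrp1). Day and slide cannot be told apart there.

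Of 28 further genes high in Treg signatures, 23 were higher in Treg than in naive T cells, against 2.86% of all probes. In TFH against naive T cells 17 were higher and 1 was lower. Medians were 3.09 and 2.16 on the log2 scale, where the medians of all probes were -0.03 and -0.09 and 14.7% of all probes were called between TFH and naive T cells. Values of single list genes are fitted and were not bounded where a group lay below background. Leading genes in Treg cells were Il2ra (7.31), the IL-2 receptor alpha chain, Klrg1 (6.84), an inhibitory receptor, and Gzmb (6.54), granzyme B. In TFH cells they were Tigit (6.95), an inhibitory receptor, Plagl1 (6.27), a zinc-finger factor, and Il10 (5.02), while Ecm1 was lower (-2.13). Among the 7 genes, Ikzf2 and Nrp1 rose and Ikzf4 fell in that comparison (3 called). In the test of the GFP difference between follicular and non-follicular cells, 9 of the 28 were lower and 0 higher, where 2.18% of all probes were called. Plagl1 (-5.77), Tigit (-4.06) and Ctla4 (-4.04), an inhibitory receptor of T cells, led them. The median of the 28 was -1.59 against 0.03 for all probes.

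Between TFR and Treg cells, 4 of the 28 were higher and 1 lower in pLN d12 and 5 higher and 6 lower in PP, where 8.35% and 9.25% of all probes were called. Tigit rose in both (2.89 and 3.19), and in PP Socs2 (-4.02), an inhibitor of cytokine signalling, Gzmb (-3.26) and Il2ra (-2.96) fell. Without slide 4, from 1 array per PP group, Socs2 gave -3.52 and Gzmb -3.13. Tigit (3.36) and Il2ra (-2.40) kept their direction there but were no longer called. Of 15 genes low in Treg signatures, 4 were lower in Treg than in naive T cells, against 0.898% of all probes. They were led by Dapl1 (-2.82), Lef1 (-1.43), a T cell transcription factor, and Themis (-1.24), a signalling adaptor. TFR cells were lower than Treg cells for 8 of the 15 in each tissue, led in both by Igfbp4 (-5.16 in pLN d12 and -4.38 in PP), which binds insulin-like growth factors. Without slide 4, from 1 array per PP group, Igfbp4 gave -4.76 in PP.

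Of 33 tested Foxp3 partners and regulators, 0 were called between Treg and naive T cells, which is near the 3.76% of all probes. The median was -0.13. In TFR against Treg cells of pLN d12, 5 were higher and 1 lower, where 8.35% of all probes were called (9.25% in PP). Uhrf1 (2.84), a maintenance factor of DNA methylation, Nr4a2 (2.42), a nuclear receptor, and Hdac9 (1.81), a histone deacetylase, led the higher ones. Bach2 (-1.87), a transcriptional repressor, was lower. In PP Uhrf1 (1.84) and Nfatc2 (1.01) were higher and Bach2 (-2.00) lower. Without slide 4, from 1 array per PP group, they gave 2.20, 1.10 and -2.66, and Uhrf1 was then not called. Of the other 3 Ikaros family genes, Ikzf3 (Aiolos) was higher in TFH (2.85) and in Treg (1.11) than in naive T cells and lower in TFR than in TFH cells of pLN d12 (-1.47), and Ikzf1 (Ikaros) was lower in TFR than in TFH cells (-1.24 in PP and -1.40 in pLN d12).

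Among 9 tested genes of latent TGF-beta handling, 0 were called between Treg and naive T cells, which is near the 3.76% of all probes. Tgfb3 was higher in TFH than in naive T cells (3.28) and lower in TFR than in TFH cells (-3.22 in PP and -2.53 in pLN d12), and Itgb8, an integrin chain that releases active TGF-beta, was higher in TFR than in Treg cells of PP (2.79). Of 17 genes of cyclic AMP breakdown and sensing, the prostaglandin E2 receptors Ptger2 (3.58) and Ptger4 (1.24) were higher and the phosphodiesterase Pde7a (-1.03) lower in Treg than in naive T cells. Of 10 tested neuropilin ligands and co-receptors, 0 were called between Treg and naive T cells, again near the 3.76% of all probes. Plxnd1 (2.98) and Plxna3 (2.88) were higher in TFH than in naive T cells. Nrp2 was lower in TFR than in Treg cells (-2.68 in PP and -1.86 in pLN d12). In PP, Vegfa (2.17) and Plxna3 (2.07) were higher in TFR than in Treg cells, at 2.03 and 2.38 without slide 4. Vegfa gave identical values against GL7+ TFH cells of PP, with and without slide 4. Equal baselines of this kind arise when both groups lie at the lower limit of intensity. The size of the Vegfa difference is therefore not taken as a measured fold. Without slide 4, from 1 array per PP group, Tgfb3 (-3.30), Itgb8 (3.01) and Ikzf1 (-1.53) kept their direction in PP. Nrp2 (-3.06) did too but was no longer called.

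Over the 20 arrays the log2 values of Foxp3 followed those of Lrrc32 at r 0.985 and of Ikzf4 at 0.977, ran against Pde3b at -0.962, and followed Gpr83 at 0.714, Nrp1 at 0.668 and Ikzf2 at 0.383. These values describe the GFP split above all, since the arrays fall into 10 high and 10 low ones for Foxp3 and share slides. Of 13087 genes, those most like Foxp3 in this sense were 2310065F04Rik (0.957), Flicr (0.956), a non-coding RNA gene next to Foxp3, and Ctif (0.945). The genes most like Ikzf2 were Plscr1 (0.968), Pdcd1lg2 (0.968) and Ctla4 (0.965), those most like Gpr83 were Pmepa1 (0.951), Notch2 (0.916) and Il10rb (0.901), and those most like Nrp1 were Ahnak (0.941), Nudt4 (0.928) and Chsy1 (0.927). For Pde3b they were Themis (0.976), Ehd3 (0.946) and Setd4 (0.925), for Lrrc32 2310065F04Rik (0.965), Hopx (0.961) and Coro2a (0.956), and for Ikzf4 Ctif (0.976), Cuedc2 (0.950) and Acsbg1 (0.947).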

How the data were processed

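Per the labels, 40 or 50 ng of total RNA per sample was amplified in one round, labelled and hybridised to single-colour Agilent arrays. The authors deposited scanner files (Agilent Feature Extraction 10.7.3.1) with intensity per printed feature, and a table of intensity that they had averaged over features, quantile normalised, scaled and floored. From the deposited feature intensity, the geometric mean of 4 features per probe was taken after leaving out outliers, then quantile normalised; scaling set the 75th percentile to 1500, lower values were raised to 20, and log2 was taken (limma 3.58.1, R 4.3.3). No deposited column of another series was used. Between 43.0% and 58.0% of 39429 probes were detected per array, and the number of arrays limits the precision.

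A probe entered the test if some group of 2 had it detected on each of its arrays, which left 22264 probes. limma (lmFit, eBayes) fitted a mean for each of 12 groups to 20 arrays (8 residual degrees of freedom), with two-sided p-values adjusted by Benjamini-Hochberg over the tested probes of each of 16 comparisons, 1 of them added after seeing the data. The spread of the d25 groups, with 1 array each, is taken to equal that of the others, and so is that of the PP groups when slide 4 is left out. Where a group was below background on all its arrays, folds of the 7 genes are bounds. For these, each such array enters with the higher of its lowest detected signal and the probe's own. Values of list genes are fitted values without such bounds, so a baseline below background is not marked. On pLN d12 TFH replicate 1 the lowest detected signal was 20, the lower limit, so bounds against that group are not firm. The methods count each sorted pool as 1 sample, while the labels do not say that arrays of a group came from separate pools, in which case p-values would measure technical spread. Arrays on the same slide deviated together (r 0.52 to 0.72 in pLN d12, 0.66 to 0.87 in PP), so slide was tried as a fixed block within tissues and as a random block between tissues and days. Intervals of 95% were computed from the moderated SE with the residual degrees of freedom. The test was also run on simulated data with independent noise on each array. These data held no slide effect, so that run cannot show how the test behaves when arrays of a slide deviate together. The 7 genes and all lists were chosen with earlier results of these data known. Named from a list were the 3 called genes with the largest change in each direction in a comparison described, and for each of the 7 genes the 3 most like it by r. Probe names and positions are those of the scanner files, and promoter windows are from RefSeq (GRCm38.p6). Alternatives were the values of the authors, normexp background correction, scaling alone, a floor of 100, no filter, slide blocks, RNA input, only the compared groups, leaving out slide 4 or each array, and other probes.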

Additional observations from a re-analysis of the deposited data

Results flagged for a closer look

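The difference between GFP+ and GFP- cells of pLN d12 was not the same inside and outside the follicular gate for Ikzf2 and Ikzf4, by a direct test of the change in difference (limma). For Ikzf2 the TFR minus TFH difference was smaller than the Treg minus naive difference, by -5.72 on the log2 scale (SE 0.70, adjusted p 0.0025), and 2 of 2 slides showed this direction. Both naive T arrays were below background for Ikzf2, so the size of this value depends on a baseline that was not measured. For Ikzf4 it was larger, by 2.22 (SE 0.39, adjusted p 0.0172), on 2 of 2 slides. The Ikzf4 call was lost in 8 of 18 alternatives, and the second Ikzf4 site gave 0.92 (adjusted p 0.745).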

How the results depend on the processing

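The labels give no replicate numbers, so arrays were paired by slide alone, which holds 1 array of each group of its tissue and day and was entered as a block. Counts below are genes called of 7. Of the values of single genes under an alternative, 1461 kept direction and side of the threshold, 75 lost and 33 gained the call, and 49 changed sign. Slide as a fixed block gave 5 for TFH minus naive T cells, 3 for TFR minus Treg in PP, 2 for the mean step, 1 for the tissue difference and 5 for the follicular change in the GFP difference. RNA input as a covariate gave 5, 3 and 2 for the first 3 of these, 4 for the last and 3 for PP minus pLN in TFR cells. All arrays of a slide had the same RNA input, while replicate slides of pLN d12 differed in it, as did those of PP. Within a tissue the covariate thus splits these arrays as the slide block does. Its counts are no check independent of slide, and effects of input and slide cannot be told apart there. Normexp gave 2 for TFR minus Treg in PP, 2 for PP minus pLN in TFR and 1 in TFH cells. Scaling alone gave 1 for TFR minus Treg in PP and 2 for PP minus pLN in TFR cells. A floor of 100 gave 2 and 1 for PP minus pLN in TFR and TFH cells and 2 for the mean step. Without slide 4 these tissue counts were 2 and 1. With only the compared groups in the fit, limma called 0 for Treg minus naive T (7 at an unadjusted p under 0.05), TFR minus TFH in pLN (6) and PP (6), TFR minus Treg in pLN (3) and PP minus pLN in TFR (3) and TFH cells (2), and 1 for the follicular change. Leaving out each array in turn gave 2 to 4 for TFH minus naive T, 0 to 2 and 0 to 1 for TFR minus Treg in pLN and PP, 0 to 1 for PP minus pLN in TFH cells and 1 to 2 for the follicular change.

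Where the sign changed, the value as reported was not called (log2). They were 0.001 (Ikzf2, GL7) and 0.035 (Lrrc32, day) under normexp, -0.033 (Foxp3, tissue difference) under scaling alone, and -0.245 (Nrp1, day) and -0.116 (Gpr83, day) with RNA input. Without slide 4 they were 0.370 (Ikzf2, Treg minus TFH in PP), 0.382 (Ikzf2, PP minus pLN in Treg cells), 0.082 (Lrrc32, tissue difference), 0.349 (Ikzf4, tissue difference) and -0.049 (Foxp3, GL7). The second Ikzf2 probe gave -0.713 and -0.241 for PP minus pLN in TFR and TFH cells, 0.016 for GL7 and -0.216 for day. The second Ikzf4 site gave 1.515 and 1.420 for PP minus pLN in Treg and TFR cells (the latter called) and -0.149 for day. The second Pde3b probe gave -0.811 for TFH minus naive T, -0.487 for the tissue difference and 0.811 for the follicular change. Leaving out each array gave for TFH minus naive T -0.074 to 0.406 (Pde3b) and -0.418 to 0.562 (Lrrc32), for day -0.16 to 0.085 (Lrrc32), for PP minus pLN -0.589 to 0.805 (Nrp1, Treg), -0.52 to 0.382 (Ikzf2, Treg), -0.421 to 0.1 (Ikzf4, Treg) and -0.063 to 0.917 (Lrrc32, TFH), for the tissue difference -0.37 to 0.46 (Foxp3), -0.297 to 0.224 (Ikzf4) and -0.715 to 0.032 (Lrrc32), for the mean step -0.553 to 0.244 (Nrp1), for TFR minus Treg in PP -0.704 to 0.126 (Foxp3) and -0.105 to 0.416 (Ikzf4), for Treg minus TFH in PP -0.506 to 0.396 (Ikzf2), and for GL7 -0.018 to 0.172 (Foxp3), -0.459 to 0.569 (Gpr83), -0.21 to 0.142 (Ikzf2) and -1.779 to 0.031 (Nrp1). The causes were not tested. Arrays of d25 were not left out, since each is its group. Values below background limit comparisons of Ikzf2 with naive T cells and of Nrp1 and Gpr83 with GFP- cells.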
